A study of Homo sapiens with 12 samples.

Results

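G protein-coupled receptors of myeloid cells, 10 in number, are described here across 4 treatments of a leukaemia line: GPR84, CNR2, C5AR1, FPR1, CXCR4, CCR1, CCR2, P2RY2, S1PR4 and PTGER4. They were taken as the rows of the raw count table that carry these symbols, 10 of 54628. Poly(A) RNA of OCI-AML3, an established line of human acute myeloid leukaemia, was sequenced as paired ends, so all values describe 1 line. The 12 libraries form 4 groups of 3, each collected after 24 h. In the combination group (Comb in the labels) cells received ABT199 together with ERKi. The ERKi group received only the ERK inhibitor, which the labels call compound 27. The ABT199 group received only venetoclax, an inhibitor of the survival protein BCL2, and the DMSO group was the solvent control. The labels give no doses. No label says that the replicates came from separate cultures, so p-values measure only the spread between these libraries, which may be technical.

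G protein-coupled receptors sit in the cell membrane, bind a ligand outside the cell and pass the signal to a G protein made of an alpha subunit and a beta-gamma pair. Chemoattractant receptors of myeloid cells mostly act through alpha subunits of the inhibitory class and steer migration, while the prostaglandin receptor PTGER4 acts through the stimulatory class and raises cyclic AMP. Active receptors are switched off by receptor kinases and arrestins, while RGS proteins end the signal at the G protein. Many of the receptors feed into the ERK pathway that the inhibitor blocks.

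Library totals ran from 19199296 to 21275065 counts. The first DMSO library stood apart from the other controls: its counts differed from theirs by 16.3 and 15.4 in chi-square per degree of freedom, against 2.26 to 5.11 for every other pair of replicates. Without it, the log2 changes in ERKi and in the combination against DMSO were -5.79 and -6.28 for GPR84, 1.78 and 2.2 for PTGER4, 1.36 and 1.55 for CXCR4, 1.11 and 1.18 for CCR2, 0.68 and 1.66 for P2RY2 and 0.07 and -0.17 for CCR1, and each call was the same as with it. CNR2 is given with and without it. Some markers of the myeloid label were well expressed over the 12 libraries. SPI1 stood at 123 to 287 CPM (counts per 1e+06 of the TMM-scaled library size), CEBPA at 375 to 828 CPM and CD33 at 56.3 to 77.7 CPM. Others were low: CD14 reached only 1.11 CPM, MPO 3.41 CPM and ITGAM 6.93 CPM. The T-cell markers CD3D, CD3G and TRAC, the B-cell marker MS4A1, the erythroid and platelet markers HBB and PF4, and the epithelial marker EPCAM were at 0 in all 12 libraries. Other markers listed for T and NK cells or stroma were not. NCAM1 ran from 72.9 to 205 CPM and PECAM1 from 11.5 to 97.9 CPM, and COL1A1 and COL1A2 reached 12 and 19.1 CPM.

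Promoter windows are shown for the 4 receptors with the largest rises in ERKi against DMSO among the 7 that passed the count filter, from the RefSeq table (8 of the 10 members matched; GPR84 and P2RY2 did not). Each is the 250 bases before the RefSeq start in GRCh38.p14, read 5' to 3' on the gene's strand. For CXCR4, which has 3 listed starts, the most upstream was used. Gene positions given further below are from GENCODE v29, where CCR2 starts at 46353734 and PTGER4 at 40679498. Their windows therefore lie inside the GENCODE genes, and the CXCR4 window overlaps its GENCODE gene, which reaches 136118165. Capitals mark matches to the motifs searched. CNR2 is on the minus strand at chr1:23913363-23913612, CCR2 on the plus strand at chr3:46353861-46354110, CXCR4 on the minus strand at chr2:136118150-136118399 and PTGER4 on the plus strand at chr5:40679665-40679914.
CNR2: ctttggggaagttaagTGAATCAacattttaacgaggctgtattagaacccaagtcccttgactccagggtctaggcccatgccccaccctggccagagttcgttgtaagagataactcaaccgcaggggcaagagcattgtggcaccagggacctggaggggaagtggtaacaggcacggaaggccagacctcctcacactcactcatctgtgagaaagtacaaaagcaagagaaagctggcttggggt
CCR2: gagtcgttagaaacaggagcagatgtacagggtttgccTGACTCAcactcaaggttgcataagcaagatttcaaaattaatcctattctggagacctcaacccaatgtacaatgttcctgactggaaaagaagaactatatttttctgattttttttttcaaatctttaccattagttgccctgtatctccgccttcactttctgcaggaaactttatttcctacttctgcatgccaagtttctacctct
CXCR4: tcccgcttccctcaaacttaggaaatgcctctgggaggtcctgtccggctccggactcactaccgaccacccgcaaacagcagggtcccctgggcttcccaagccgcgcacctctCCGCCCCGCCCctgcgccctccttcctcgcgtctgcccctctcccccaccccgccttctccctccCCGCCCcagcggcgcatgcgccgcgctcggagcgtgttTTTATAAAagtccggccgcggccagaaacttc
PTGER4: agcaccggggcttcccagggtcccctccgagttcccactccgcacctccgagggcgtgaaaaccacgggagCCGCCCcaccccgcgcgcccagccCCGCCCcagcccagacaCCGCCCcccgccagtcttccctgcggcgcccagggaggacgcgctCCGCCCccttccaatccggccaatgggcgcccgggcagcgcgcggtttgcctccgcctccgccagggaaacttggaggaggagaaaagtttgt

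A set of 5 motifs was searched, each on both strands, with positions counted from the RefSeq start. The AP-1 letters TGANTCA occurred in CNR2, 234 to 228 bases before its start, and in CCR2, 212 to 206 bases before its start, which is 2 of the 8 member windows; 6.57% of all 35116 windows of this length hold them. The GC box GGGCGG occurred, read on the opposite strand, 4 times in PTGER4 and 3 times in CXCR4, where a pair of the matches overlap by 1 base, and is found in 42.6% of all windows. The TATA letters TATAAA stood 30 to 25 bases before the CXCR4 start, overlapping a match on the opposite strand, and occur in 10.7% of windows. The ETS letters CCGGAAGT and the PU.1-type letters GAGGAAGT were in none of the 8 member windows and in 3.42% and 2.17% of all windows. The PTGER4 and CXCR4 windows held 72.8% and 68% G or C and the CNR2 and CCR2 windows 52.4% and 38.8%, against a median of 58% over all windows. These matches describe letters, not factor binding.

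GPR84, a receptor for medium-chain fatty acids that is induced in activated myeloid cells, was almost absent from the libraries with ERKi. In GENCODE v29 it is a gene of 1 exon at chr12:54362445-54364487 on the minus strand of GRCh38, and the antisense genes annotated across it share 0 exon bases with it. Its levels were 0.152, 0.162 and 0.314 CPM in the combination libraries, 0.332, 0.139 and 0.419 CPM in the ERKi libraries, 19, 16.7 and 18.4 CPM in the ABT199 libraries and 19.6, 17.1 and 16.2 CPM in the DMSO libraries. The combination and ERKi libraries held 3 to 9 reads of GPR84 each, and the ABT199 and DMSO libraries 330 to 405, so the ranges stood far apart. The log2 change was -5.87 (SE 0.212) in ERKi against DMSO, which is 58.4-fold lower, with an adjusted p of 3.3e-13 in edgeR's quasi-likelihood test. In the combination against DMSO it was -6.35 (SE 0.23, adjusted p 6.98e-13). Both changes rest on few reads in the libraries with ERKi. When single libraries were left out, the change ranged from -6.2 to -5.53 in ERKi and from -6.76 to -6.17 in the combination. The combination and ERKi ranges overlapped, and their difference of -0.49 (95% interval -1.4 to 0.43, adjusted p 0.44) did not pass the threshold. In bulk RNA, fewer cells that express a transcript and less of it per cell cannot be told apart.

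CNR2, the cannabinoid receptor of immune cells, went the other way. This gene, at chr1:23870526-23913362, had 5.36, 4.55 and 4.87 CPM in the combination libraries, 10.6, 11.2 and 13.2 CPM in the ERKi libraries, 0.0499, 0 and 0.197 CPM in the ABT199 libraries and 0.483, 0.141 and 0 CPM in the DMSO libraries. Reads numbered 84 to 106 per library in the combination and 223 to 284 in ERKi, against 0 to 4 in ABT199 and 0 to 10 in DMSO. CNR2 was therefore near the detection floor without ERKi. In ERKi against DMSO the log2 change was 5.78 (edgeR's quasi-likelihood test, SE 0.422, adjusted p 2.33e-09), about 54.8-fold. It rests on few control reads: without DMSO replicate 1 it was 7.24 (adjusted p 2.03e-11), and without DMSO replicate 3 it was 5.19. In the combination against DMSO the rise was 4.54 (SE 0.445, adjusted p 1.43e-07), 6 without DMSO replicate 1 and 3.96 without DMSO replicate 3. The combination held less CNR2 than ERKi with no overlap of libraries, with a log2 change of -1.24 (SE 0.28, adjusted p 0.00152).

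**Figure D1:**
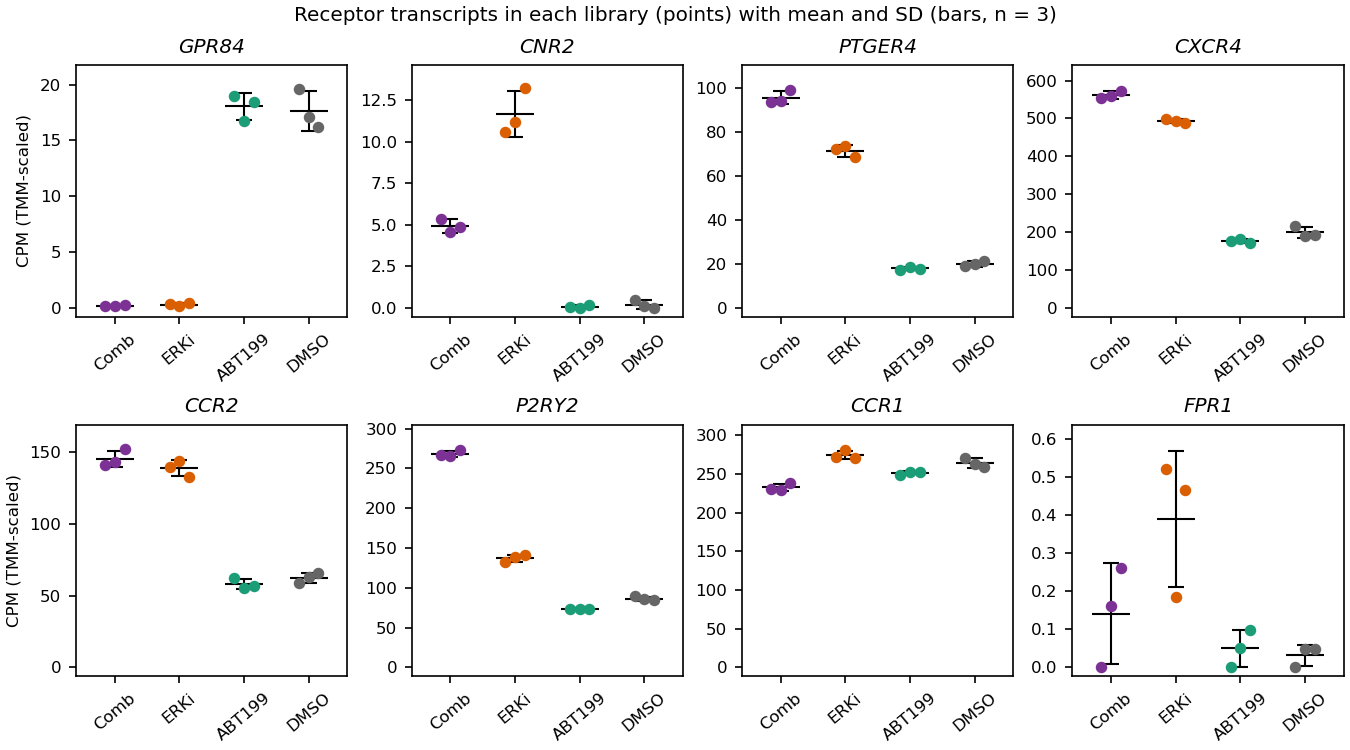
Level of 8 receptors in each library, in CPM (counts scaled by TMM library size), in the combination, ERKi, ABT199 and DMSO groups. Points are libraries, long bars group means and short bars the SD (n = 3); GPR84 was lower and CNR2, PTGER4, CXCR4, CCR2 and P2RY2 were higher in both groups that received ERKi than in DMSO.

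PTGER4, a receptor for prostaglandin E2, showed the next largest rise of the 7 receptors that passed the count filter. Its levels were 93.5, 94.1 and 98.9 CPM in the combination, 72.1, 73.5 and 68.4 CPM in ERKi, 17.2, 18.8 and 17.9 CPM in ABT199 and 19, 19.8 and 21.5 CPM in DMSO. The combination stood above ERKi and both stood above the other groups, with no overlap. The log2 change in ERKi against DMSO was 1.83 (SE 0.0586, adjusted p 8.64e-14), and in the combination against DMSO 2.25 (SE 0.0585, adjusted p 1.65e-14). The combination exceeded ERKi by 0.42 (SE 0.0526, adjusted p 6.25e-06). The oppositely stranded gene TTC33 lies across the PTGER4 locus at chr5:40679498-40693735 but shares 0 exon bases with it, and TTC33 ranged from 29.8 to 66.5 CPM.

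The chemokine receptors differed among themselves. CXCR4 (chr2:136114349-136118165, minus strand) is the CXCL12 receptor that holds haematopoietic cells in the bone marrow. It had 554, 558 and 573 CPM in the combination, 498, 492 and 487 CPM in ERKi, 177, 182 and 172 CPM in ABT199 and 217, 190 and 192 CPM in DMSO. Every library with ERKi was above every library without it. Its log2 change was 1.3 (SE 0.0485, adjusted p 4.46e-13) in ERKi against DMSO and 1.49 (SE 0.0487, adjusted p 2.43e-13) in the combination against DMSO.

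CCR2, the receptor for CCL2 on monocytes, also rose (chr3:46353734-46360928, plus strand). It had 141, 143 and 152 CPM in the combination, 140, 144 and 133 CPM in ERKi, 62.1, 55.6 and 56.6 CPM in ABT199 and 59, 62.7 and 65.7 CPM in DMSO. The log2 change was 1.15 (SE 0.0575, adjusted p 1.68e-11) in ERKi and 1.22 (SE 0.0576, adjusted p 1.76e-11) in the combination, each against DMSO. The combination and ERKi overlapped, and their difference of 0.07 (95% interval -0.05 to 0.18, adjusted p 0.345) did not pass. CCR1, which binds CCL3 and CCL5 and lies near CCR2 (chr3:46201709-46208396, minus strand), had narrow differences between groups. Its levels were 231, 229 and 238 CPM in the combination, 272, 281 and 271 CPM in ERKi, 249, 253 and 253 CPM in ABT199 and 271, 263 and 259 CPM in DMSO. CCR3, annotated across CCR1 on the other strand with 0 shared exon bases, reached at most 1.27 CPM. All ERKi libraries were above the highest DMSO library and all combination libraries below the lowest, by small margins. The change of 0.06 in ERKi against DMSO (95% interval -0.02 to 0.14, adjusted p 0.188) was not called, although it was called with a filter of at least 1 CPM in at least 3 libraries (0.09, adjusted p 0.0436). In the combination CCR1 fell by 0.18 against DMSO (SE 0.0387, adjusted p 0.000575) and by 0.24 against ERKi (SE 0.0386, adjusted p 7.66e-05).

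P2RY2, which senses extracellular ATP and UTP, had the largest rise of the 7 receptors tested in the combination against ERKi (chr11:73218298-73236352, plus strand). It had 267, 266 and 273 CPM in the combination, 132, 138 and 141 CPM in ERKi, 73.8, 73.8 and 72.8 CPM in ABT199 and 89, 85.3 and 84.5 CPM in DMSO. The 4 groups did not overlap, and the combination was 1.97-fold above ERKi (log2 change 0.98, SE 0.0426, adjusted p 8.92e-11). Against DMSO the log2 change was 1.64 (SE 0.0438, adjusted p 2.25e-14) in the combination and 0.66 (SE 0.0436, adjusted p 5.96e-10) in ERKi. In ABT199 against DMSO it was -0.23 (SE 0.0446, adjusted p 0.0291).

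The other 3 receptors fell below the count filter and were not part of the tests. FPR1, the receptor for bacterial formyl peptides, had 0, 3 and 5 reads in the combination, 11, 4 and 10 in ERKi, 0, 1 and 2 in ABT199 and 0, 1 and 1 in DMSO. The ERKi libraries stood above all DMSO libraries, but an exact permutation test, two-sided, gave p = 0.1, the smallest that 3 against 3 can give. Fitted without the filter, FPR1 was called in ERKi against DMSO (log2 change 3.36, SE 0.999, adjusted p 0.00255), where 18.5% of 29632 genes were called higher. C5AR1, the complement C5a receptor, had 3 reads in the combination, 4 in ERKi, 7 in ABT199 and 6 in DMSO, too few for a comparison. S1PR4, a sphingosine 1-phosphate receptor, had 0 reads in all 12 libraries, which allows up to 0.139 to 0.162 CPM per library (3 counts; counting error only).

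Of the 7 receptors that passed the filter, 5 rose, 1 fell and 1 was not called in ERKi against DMSO, where 69.7% of the 15173 genes tested were called, 34.5% higher and 35.2% lower. In the combination against DMSO, 5 rose and 2 fell, where 30.4% of all genes were called higher and 33.4% lower (63.8% together). The median log2 change of the 7 was 1.15 in ERKi and 1.49 in the combination against DMSO, beside 0.01 and -0.01 over all genes tested. With most genes called, these counts alone do not set the receptors apart from other genes. The receptors were chosen with earlier results of these data known, so their medians do not set them apart either. CNR2 passed the count filter only through the libraries with ERKi, and GPR84 only through those without it. In these comparisons CNR2 could thus be called only as a rise and GPR84 only as a fall. Both comparisons use the same DMSO libraries.

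**Figure D2:**
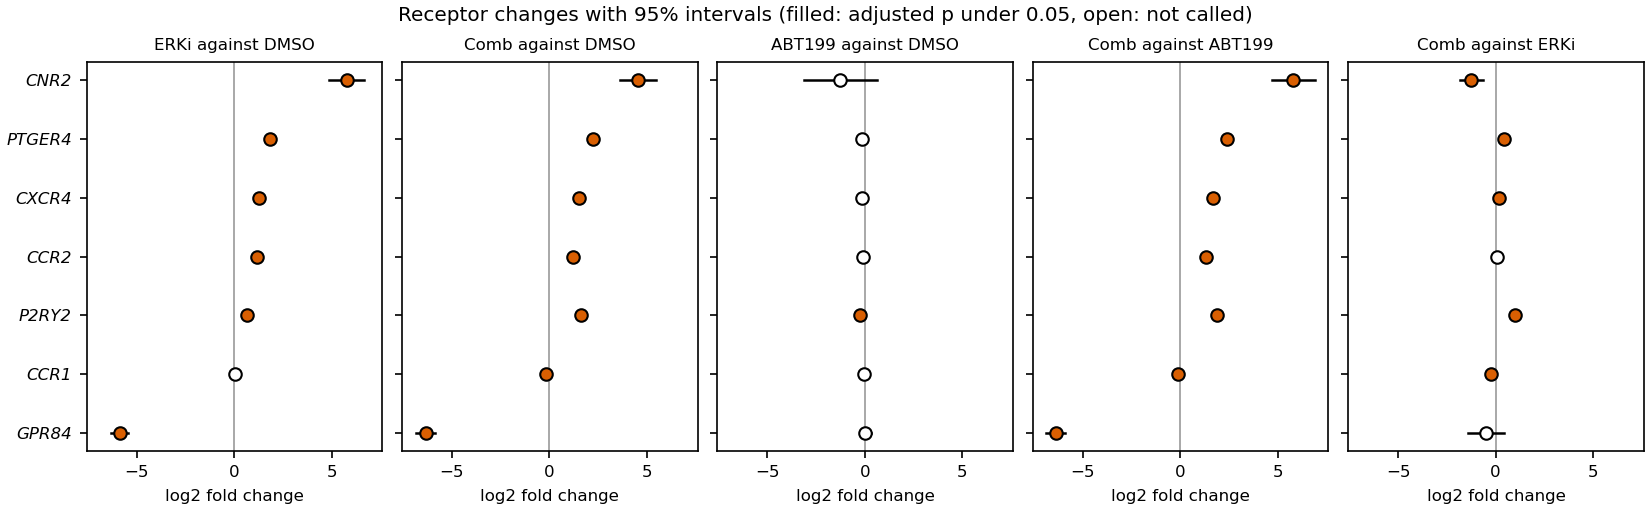
Log2 fold change of the 7 tested receptors in each comparison, with bars for the 95% interval; filled points passed an adjusted p of 0.05 and open points did not. GPR84 lay near -6 and CNR2 between 4.54 and 5.78 in the comparisons of ERKi and the combination with DMSO, while values for ABT199 against DMSO lay near 0 for all but CNR2, whose interval ran from -3.14 to 0.64.

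In ABT199 against DMSO 1 of the 7 tested was called, P2RY2, which fell. Of all genes 0.402% were called, 0.0198% higher and 0.382% lower. The adjusted p of P2RY2 ranged from 0.00207 in DESeq2 to 0.313 with only the libraries compared, and was 0.075 with the replicate number as a block. The call was also lost without ABT199 replicate 1, 2 or 3 (0.14, 0.115 and 0.165), DMSO replicate 2 or 3 (0.0666 and 0.0655), ERKi replicate 2 or 3 (0.0532 and 0.051) or combination replicate 3 (0.0513). GPR84 changed by 0.03 (95% interval -0.24 to 0.31, adjusted p 0.956). CXCR4 changed by -0.17 (SE 0.0487, adjusted p 0.259), with every ABT199 library below every DMSO library. PTGER4 (-0.16, adjusted p 0.475), CCR2 (-0.1, adjusted p 0.626), CCR1 (-0.07, adjusted p 0.613) and CNR2 (-1.25, adjusted p 0.697) did not pass the test either.

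The ERKi effect was also read against venetoclax, in libraries not used in ERKi against DMSO. The count filter, the scaling and the estimate of spread came from the single model of all 12 libraries, so the p-values of these comparisons are not independent. In the combination against ABT199, 5 of the 7 rose and 2 fell, with 32.1% of all genes called higher and 34.2% lower (66.2% together). As above, the count filter left CNR2 to be called only as a rise and GPR84 only as a fall. GPR84 changed by -6.39 (SE 0.23, adjusted p 5.78e-13) and CNR2 by 5.79 (SE 0.525, adjusted p 4.95e-08; 7.3 without ABT199 replicate 3). PTGER4 rose by 2.41, P2RY2 by 1.87, CXCR4 by 1.66 and CCR2 by 1.32, each with an adjusted p of at most 6.2e-12. CCR1 fell by 0.11 (adjusted p 0.018), a call that was lost without combination replicate 1 (0.051) or replicate 2 (0.0617) and with no filter on low counts (0.185).

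**Figure D3:**
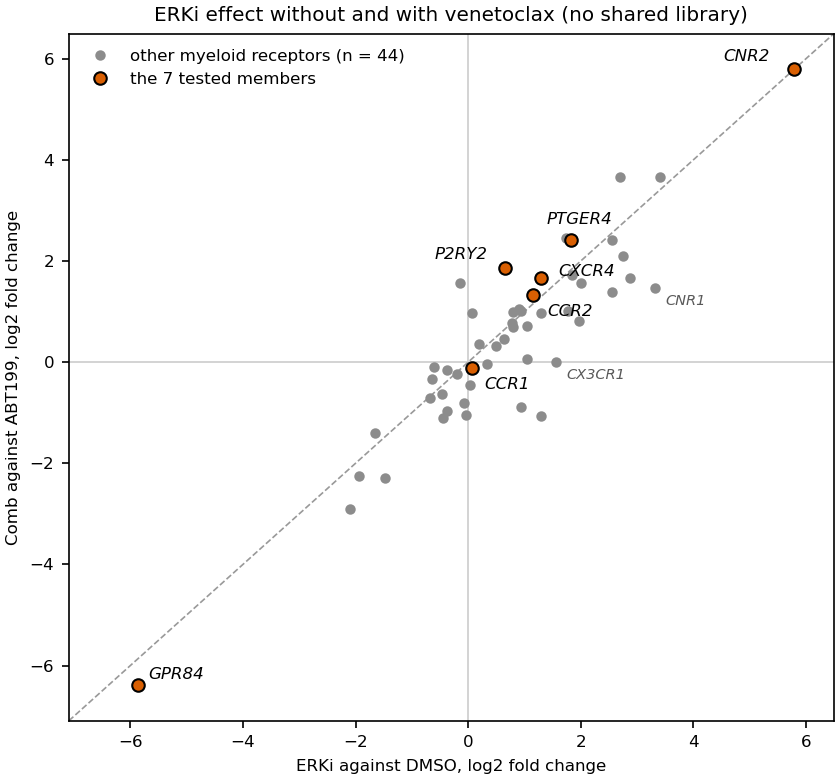
Log2 fold change in ERKi against DMSO (x axis) and in the combination against ABT199 (y axis), comparisons that share no library, for the 7 tested receptors (orange) and 44 other myeloid receptors (grey); the dashed line marks equal values. P2RY2 lay at 0.66 and 1.87, above the line, and CNR1 at 3.32 and 1.46, below it.

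In the combination against ERKi 5 of the 7 receptors changed: P2RY2, PTGER4 and CXCR4 rose and CNR2 and CCR1 fell, where 26.5% of all genes were called higher and 24.3% lower (50.9% together). CXCR4 rose by 0.19 (SE 0.0472, adjusted p 0.0031). The interaction, meaning the difference between the ERKi effect with venetoclax and without it, was called for 4 of the 7, beside 39.2% of all genes (21.3% positive and 18% negative). It was 1.21 for P2RY2 (SE 0.0617, adjusted p 2.62e-09), 0.59 for PTGER4 (SE 0.0836, adjusted p 5.82e-05) and 0.36 for CXCR4 (SE 0.0678, adjusted p 0.000584). For CCR1 it was -0.17 (SE 0.0546, adjusted p 0.021), a call lost without DMSO replicate 3, ABT199 replicate 2 or 3 or ERKi replicate 2 and with no filter. The interaction of CCR2 was 0.17 (adjusted p 0.109) and was called without DMSO replicate 1 (adjusted p 0.0215) or ABT199 replicate 1 (0.0482). That of CNR2 was 0.01 (adjusted p 0.966) and ranged from -1.45 to 1.53 when single libraries were left out.

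Levels of different receptors were compared per kilobase of exon, with GENCODE v29 lengths. The annotation used for counting is not stated, and RefSeq gives longer gene spans for P2RY2, PTGER4 and GPR84. Ranks and shares could therefore differ with other lengths. CXCR4 ranked highest in the combination (252 ± 4.54 CPM per kilobase, SD, n = 3) and in ERKi (221 ± 2.64), while CCR1 ranked highest in ABT199 (92 ± 0.811) and DMSO (96.7 ± 2.28). In DMSO the CCR1 and CXCR4 ranges of 94.7 to 99.2 and 85.4 to 97.4 overlapped. P2RY2 had rank 2 in the combination, at 93.9 ± 1.35, and rank 3 in the other groups. GPR84 made up 0.0206% of the 10 receptors' summed level in the combination and 0.034% in ERKi, against 3.9% in ABT199 and 3.49% in DMSO. The sum itself was 496 ± 9.76 CPM per kilobase in the combination, 428 ± 4.32 in ERKi, 226 ± 1.95 in ABT199 and 247 ± 9.44 in DMSO.

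**Figure D4:**
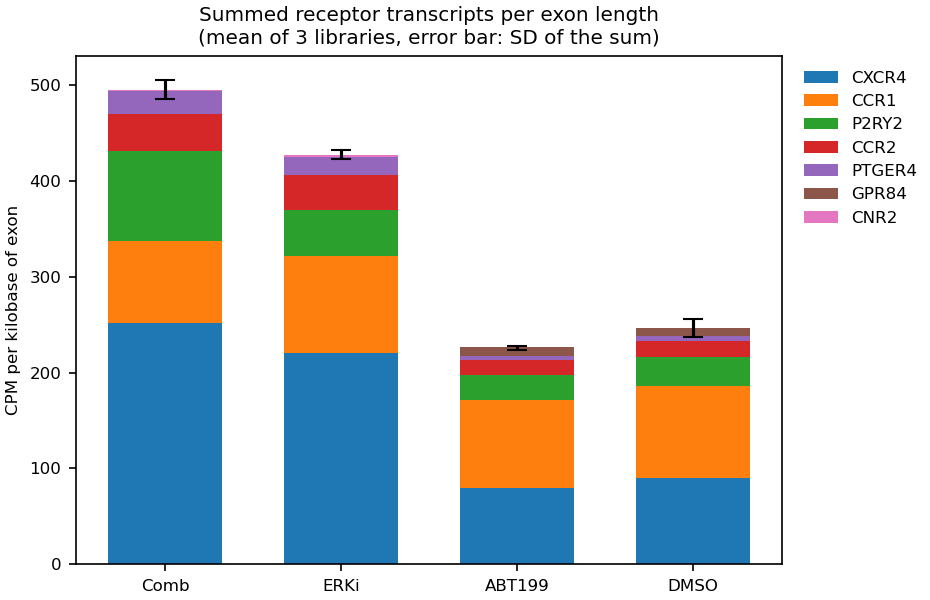
Summed level of the receptors in CPM per kilobase of exon in the combination, ERKi, ABT199 and DMSO groups, stacked by receptor (group means, n = 3; the error bar is the SD of the sum); FPR1, C5AR1 and S1PR4 are too low to show. CXCR4 took 50.9% of the sum in the combination and 51.8% in ERKi, against 35.2% in ABT199 and 36.3% in DMSO, and CCR1 took 17.2% in the combination and 23.5% in ERKi, against 40.7% in ABT199 and 39.1% in DMSO.

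The genes whose 3 log2 changes against DMSO lay nearest to each receptor's were found among 10294 genes with a mean of at least 5 CPM, by the root mean square difference over those 3 changes, which come from 4 groups and 12 libraries. GPR84 had no close match: the nearest were C3orf52 (0.617) and ETV4 (1.27), an ETS-family transcription factor at -5.14 in ERKi and -4.28 in the combination. GPR84 had only 3 to 9 reads in each library with ERKi, so its distances carry more counting error than those of the receptors below. For P2RY2 the nearest were CITED4 (0.0883) and APBA2 (0.111), and for PTGER4 AP5B1 (0.0754) and GASK1B (0.101). CXCR4 lay nearest to PITPNC1 (0.0427) and RGL3 (0.0634), CCR2 to GAS7 (0.0377) and LINGO3 (0.0379), and CCR1 to ZNF136 (0.0202) and AFF3 (0.0237).

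Other receptors of myeloid cells moved in both directions. Of 77 listed, 44 were tested: 24 rose and 10 fell in ERKi against DMSO (median log2 change 0.78, against 0.01 for all genes), and 21 rose and 11 fell in the combination against DMSO (median 0.34, against -0.01). Of all genes, 34.5% were called higher and 35.2% lower in ERKi, and 30.4% higher and 33.4% lower in the combination. This list of receptors and the lists below were chosen with earlier results of these data known. The count filter also limits the counts of these lists. A gene that passed only through the libraries with ERKi could be called only as a rise, and the reverse. CNR1, the other cannabinoid receptor, stood at 12.8 ± 0.4 CPM in the combination, 45.4 ± 1.52 in ERKi, 4.65 ± 0.162 in ABT199 and 4.53 ± 0.928 in DMSO (SD, n = 3 each). It was lower in the combination than in ERKi, with a log2 change of -1.83 (SE 0.0944, adjusted p 4.75e-10). CX3CR1, the fractalkine receptor, rose in ERKi against DMSO (log2 change 1.56, adjusted p 7.14e-13) and fell in the combination against ERKi (-1.69, adjusted p 1.35e-11). PTGER2, which like PTGER4 binds prostaglandin E2 and raises cyclic AMP, rose by 3.47 in the combination against DMSO (SE 0.218, adjusted p 6.04e-10). Its level was low, with 9 to 11 reads in each DMSO library, 6 to 10 in ABT199 and 98 to 111 in the combination. Without ERKi PTGER2 was thus near the minimum count of 10, so that a fall could hardly have been called. CYSLTR1 fell from 162 ± 8.62 CPM in DMSO to 83.1 ± 3.57 CPM in the combination (log2 change -0.97, SE 0.0506). Against ERKi, 4 of the 44 were higher in the combination and 20 were lower, beside 26.5% and 24.3% of all genes.

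The signalling partners changed in both directions; over all genes the median was 0.01 in ERKi, with 34.5% called higher and 35.2% lower, and -0.01 in the combination, with 30.4% higher and 33.4% lower, each against DMSO. Of 24 G protein subunits tested (27 listed), 7 rose and 12 fell in ERKi against DMSO (median -0.36) and 4 rose and 10 fell in the combination (median -0.1). GNAI3, an inhibitory alpha subunit, fell to 93 ± 3.4 CPM in the combination and 108 ± 4.17 CPM in ERKi, against 160 ± 10.8 CPM in DMSO. The gamma subunit GNG7 rose by 2.36 in ERKi and 1.43 in the combination. A list of 26 genes for receptor kinases, arrestins and RGS proteins, which also held RIC8 and GPSM genes, had 22 tested. Of these, 6 rose and 6 fell in ERKi (median 0.04), each against DMSO. In the combination 7 rose and 4 fell (median 0.02). RIC8A, GPSM1 and GPSM2 were among those that fell in ERKi. In the combination RIC8A and RIC8B fell and GPSM2 rose. RGS18 rose by 0.85 in ERKi, whereas the receptor kinase GRK6 fell by 0.84 in ERKi and was higher in the combination than in ERKi by 0.81. Of 31 effectors (35 listed), 18 rose and 6 fell in ERKi (median 0.48) and in the combination (median 0.25). ADCY7, an adenylyl cyclase that makes cyclic AMP, stood at 47 ± 2.38 CPM in the combination, 27.2 ± 2.04 in ERKi and 8.44 ± 1.18 in DMSO, while ADCY3 changed by -1.33 in ERKi and PLCB2, a phospholipase C, by 1.25.

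Of 30 tested genes for ligands and the enzymes that make or clear them (47 listed), 10 rose and 14 fell in ERKi against DMSO (median -0.27) and 8 rose and 15 fell in the combination (median -0.37). The shares of all genes were 34.5% higher and 35.2% lower in ERKi, and 30.4% higher and 33.4% lower in the combination. ANXA1, a ligand of the formyl peptide receptor family, had 53 ± 2.94 CPM in the combination, 75.3 ± 2.58 in ERKi, 6.86 ± 0.726 in ABT199 and 6.67 ± 1.58 in DMSO. NT5E, which turns AMP into adenosine outside the cell, changed by -1.97 in the combination and -1.44 in ERKi. DPP4, which cleaves and inactivates CXCL12, changed by -0.92 in the combination and 0.35 in ERKi, each against DMSO, and by -1.27 in the combination against ERKi.

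**Figure D5:**
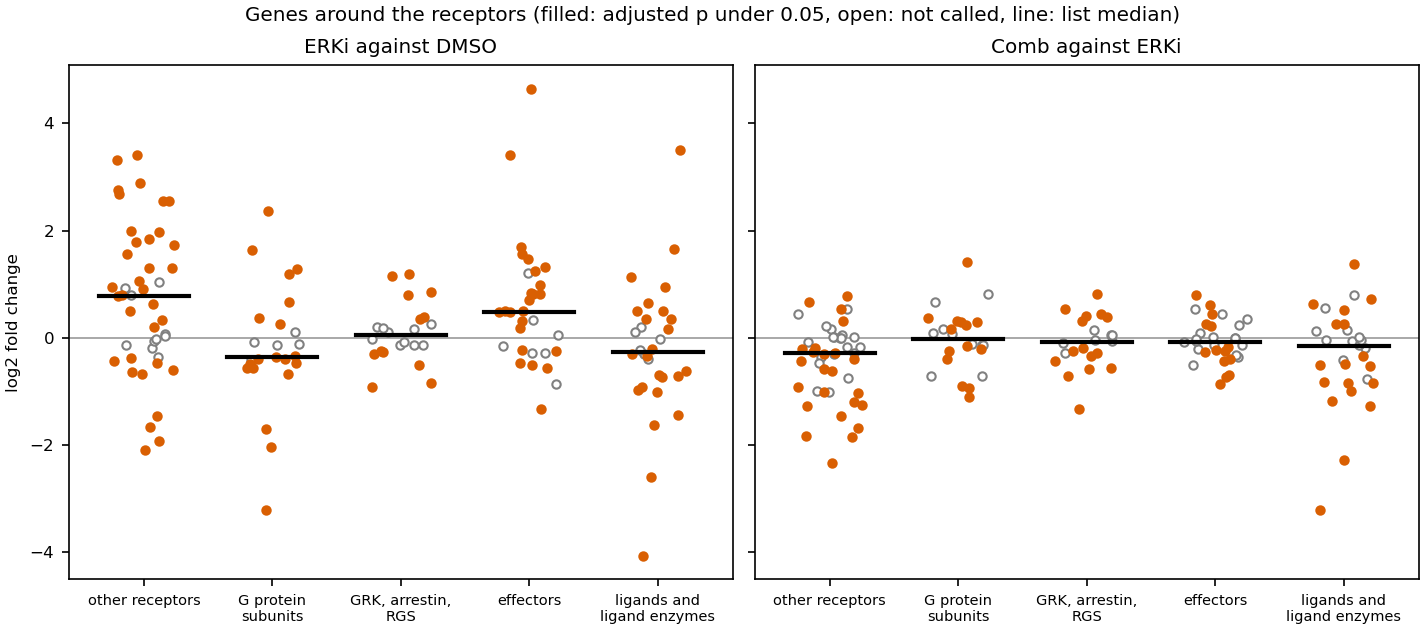
Log2 fold change of each tested gene in the signalling lists (x axis), in ERKi against DMSO (left) and in the combination against ERKi (right); filled points passed an adjusted p of 0.05, open points did not, and black lines are list medians. The other receptors had a median of 0.78 in ERKi against DMSO and of -0.29 in the combination against ERKi. The list labelled with GRK, arrestin and RGS also holds RIC8 and GPSM genes.

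Markers of myeloid identity also changed, in both directions. All 12 listed were tested, and 9 rose and 3 fell in ERKi and 10 rose and 2 fell in the combination, each against DMSO, where 34.5% of all genes were called higher and 35.2% lower in ERKi, and 30.4% higher and 33.4% lower in the combination. Those that fell in ERKi were FCGR1A, an Fc receptor (-1.96), CD14, a lipopolysaccharide co-receptor (-1.18), and MPO, myeloperoxidase (-0.78). In the combination FCGR1A (-1.03) and CD14 (-1.17) fell and MPO rose (0.86). The 12 markers summed to 5710 to 5980 CPM in the combination and 4050 to 4240 in ERKi. Without ERKi the sum was 980 to 1030 CPM in ABT199 and 1040 to 1190 in DMSO. LYZ, the lysozyme gene, carried most of the sum in the combination (mean 3990 CPM) and in ERKi (2430 CPM). It was a smaller part in ABT199 (176 CPM) and DMSO (209 CPM), below CEBPA at 389 and 403 CPM. The part of the myeloid markers in the receptor changes was not tested. The 8 stromal and epithelial markers, of which 4 were tested, summed to 89.6 to 99.2 CPM in the combination and 85.8 to 99.3 in ERKi. The sum was 25.2 to 36.3 CPM in ABT199 and 17.5 to 46.3 in DMSO. PECAM1, which myeloid cells also express, rose and the 3 collagen genes fell in the combination. The collagen genes varied widely between the DMSO libraries, with 2 to 254 reads of COL1A1, 121 to 406 of COL1A2 and 2 to 49 of COL3A1. NCAM1, the 1 T and NK marker tested, fell in both groups with ERKi (72.9 to 205 CPM over all libraries), and the B-cell and erythroid lists summed to at most 2.71 CPM. The part of these markers was not tested.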

How the data were processed

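The deposited table holds raw read counts per gene symbol for 12 poly(A) RNA libraries, made by the authors. The submitters' processing notes name HISAT2, HTSeq, DESeq2 and the hg38 build. Tool versions, annotation release and strand setting are not stated there or in the labels, and without strand a gene and its antisense partner cannot be separated. No values were changed before analysis. Groups and replicate numbers came from the labels.

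The tests used edgeR 4.0.16 (R 4.3.3). filterByExpr, with a minimum count of 10 and a minimum total of 15, left 15173 genes, which were scaled by TMM. All 12 libraries entered a single model with a coefficient for each group (8 residual degrees of freedom), tested by the quasi-likelihood F test and adjusted over all genes tested by Benjamini-Hochberg. Calls were made at an adjusted p under 0.05. Log2 changes used a prior count of 0.125, and standard errors came from the change and its F value, left out where F was under 0.05. TMM takes most genes as unchanged, so changes are relative. CPM per kilobase used GENCODE v29 exon lengths.

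Named genes were the 10 receptors, up to 4 called genes per list and comparison by adjusted p, and the 2 nearest genes of each receptor with a mean of at least 5 CPM. The receptors and lists were chosen with earlier results of these data known. Alternatives were RLE scaling, no low-count filter, a minimum of 1 CPM in 3 libraries, a replicate block, only the compared libraries, DESeq2 1.42.0 and leaving out each library. The test scripts were tested on simulated data. Figures were drawn with matplotlib 3.10.9.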

Additional observations from a re-analysis of the deposited data

Results flagged for a closer look

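For 4 receptors the ERKi effect differed between cells with and without venetoclax, by the interaction term of edgeR's quasi-likelihood test with adjustment over all genes, a call that 39.2% of all genes received. For P2RY2 the difference was 1.21 on the log2 scale: the ERKi effect was 1.87 with venetoclax and 0.66 without. For PTGER4 it was 0.59, from 2.41 with venetoclax and 1.83 without. For CXCR4 it was 0.36, from 1.66 with venetoclax and 1.3 without. For CCR1 it was -0.17, from -0.11 with venetoclax and 0.06 without, and this call was lost in 5 of the alternatives.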

How the results depend on the processing

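Counts of receptors called were within 1.5 times of the main count under every alternative run, apart from ABT199 against DMSO, where 1 was called and 0 were with the replicate block or with only the libraries compared. Leaving out single libraries gave 0 to 1 there, 6 to 7 in ERKi against DMSO, 7 to 7 in the combination against DMSO, 6 to 7 in the combination against ABT199, 5 to 5 in the combination against ERKi and 3 to 5 for the interaction. Of the single-gene values under alternatives, 717 kept direction and call, 18 lost a call, 3 gained one and 9 changed sign, none of these 9 a called value. The sign changes were CNR2 in ABT199 against DMSO (0.22 without DMSO replicate 1), GPR84 in the same comparison (-0.02 without DMSO replicate 3) and the interaction of CNR2 (-0.01 with a filter of 1 CPM, -1.45 without DMSO replicate 1, -0.23 and -0.53 without ABT199 replicate 1 and 2, -0.05 and -0.02 without ERKi replicate 1 and 2, and -0.06 without combination replicate 1). Without single libraries CNR2 in ABT199 against DMSO ranged from -2.76 to 0.22, GPR84 there from -0.02 to 0.11, and the interaction of CNR2 from -1.45 to 1.53. The cause was not tested.

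Over all genes, ABT199 against DMSO gave 3 higher and 58 lower in the main setting, 74 and 168 with no filter, 11 and 75 in DESeq2, 1 and 32 with only the libraries compared and 1 and 47 with the replicate block. Deviations of same-numbered libraries correlated at -0.09 to 0.067 over 18 pairs, and 3 of 12 libraries matched their own number best. No shared effect of the replicate number was seen, which does not show whether samples were handled in numbered sets. Depth limits FPR1, C5AR1 and S1PR4 in all groups, CNR2 in ABT199 and DMSO, and GPR84 in the combination and ERKi.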

Other observations

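Relatives of the 10 receptors are given here as values, chosen after their values were seen. P2RY1, which binds ADP, changed with the opposite sign to P2RY2: its log2 change was -2.1 in ERKi and -3.02 in the combination against DMSO (adjusted p 1.71e-08 and 9.83e-10, edgeR's quasi-likelihood test). P2RY6, which binds UDP, changed by 0.94 and 1.1 in the same comparisons. S1PR3, a relative of S1PR4, changed by -0.44 in ERKi and -1.06 in the combination. GPR183, the receptor for oxysterols, changed by 3.41 in ERKi and 3.13 in the combination. PTGER3, the prostaglandin E2 receptor that acts through the inhibitory class, was not called in ERKi (-0.2, adjusted p 0.0938) or in the combination (-0.21, adjusted p 0.0823).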
